A study of Mus musculus with 9 samples.

Results

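Xenobiotic, lipid and hormone receptor genes were followed through the injury and the recovery of the mouse liver. The 9 genes were Nr1i2, Nr1i3, Ahr, Ppara, Pparg, Nr1h3, Rxra, Esr1 and Thrb. They were matched by symbol in the expression table of 21873 genes. All 9 passed the filter on low values, which kept 14094 genes. RNA was sequenced from the livers of 9 male C57BL/6 mice, 3 in each of the control, TAA and recovery groups. Mice were 8 weeks old when the injections began. The TAA group received intraperitoneal thioacetamide, a hepatotoxin that produces fibrosis, at 200 mg/kg every 3 days over 8 weeks, and the control group received normal saline. Both groups were killed 72 h after the last injection. The recovery group had the same thioacetamide course and was then left untreated for 8 more weeks, so its mice were older at collection and had no saline group of equal age among these samples. Whole liver was used, so an mRNA level is an average over all its cells, and fewer hepatocytes cannot be told apart from less mRNA per hepatocyte.

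Apart from Ahr, these receptors belong to the nuclear receptor family, transcription factors that bind a small lipophilic ligand and then switch the genes they occupy on or off. CAR (Nr1i3) and PXR (Nr1i2) sense drugs, bile acids and other foreign or toxic molecules and drive cytochrome P450 enzymes, conjugating enzymes and transporters in hepatocytes. The aryl hydrocarbon receptor (Ahr) is a basic helix-loop-helix protein that responds to planar aromatic compounds together with its partner ARNT. PPARα (Ppara) responds to fatty acids and drives their oxidation, PPARγ (Pparg) drives lipid storage, and LXRα (Nr1h3) responds to oxysterols and drives cholesterol export and lipogenesis. RXRα (Rxra) is the shared partner with which CAR, PXR, the PPARs, LXRα and the thyroid hormone receptor pair on DNA. ERα (Esr1) is the estrogen receptor of the liver, and TRβ (Thrb) is its main thyroid hormone receptor.

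Because receptors of this family act through upstream DNA of their targets and of each other, the 250 bases before a transcript start were searched for 4 motifs on both strands. These were AGGTCA, the hexamer that a single nuclear receptor protein contacts, CACGTG, the palindromic E-box of clock and MYC-type factors, GCGTG, the core contacted by the aryl hydrocarbon receptor, and CAAAGTCCA, the motif of HNF4α. RefSeq windows on GRCm38.p6 were used for 8 of the 9 genes (all but Ahr), and 4 genes had a window free of annotated exons. Shown are the windows of the genes whose mRNA moved most among these 4, CAR and RXRα, and that of PXR for contrast, with motif matches in capitals.
Nr1i3, chr1:171213720-171213969, plus strand: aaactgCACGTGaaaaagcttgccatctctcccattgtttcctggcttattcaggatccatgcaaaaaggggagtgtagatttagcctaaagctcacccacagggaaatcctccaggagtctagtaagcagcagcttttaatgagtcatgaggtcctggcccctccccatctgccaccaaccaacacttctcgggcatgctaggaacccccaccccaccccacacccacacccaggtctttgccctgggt
Rxra, first start, chr2:27676951-27677200, plus strand: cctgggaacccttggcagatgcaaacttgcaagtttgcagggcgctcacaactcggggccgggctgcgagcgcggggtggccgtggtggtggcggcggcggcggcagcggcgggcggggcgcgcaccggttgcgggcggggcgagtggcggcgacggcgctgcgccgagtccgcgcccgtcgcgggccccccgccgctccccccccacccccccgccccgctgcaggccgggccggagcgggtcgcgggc
Rxra, second start, chr2:27709042-27709291, plus strand: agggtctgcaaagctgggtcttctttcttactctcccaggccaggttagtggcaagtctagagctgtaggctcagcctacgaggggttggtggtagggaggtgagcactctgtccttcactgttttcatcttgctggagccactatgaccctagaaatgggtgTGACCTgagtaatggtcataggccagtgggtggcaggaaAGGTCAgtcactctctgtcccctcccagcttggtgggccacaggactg
Nr1i2, chr16:38294825-38295074, minus strand: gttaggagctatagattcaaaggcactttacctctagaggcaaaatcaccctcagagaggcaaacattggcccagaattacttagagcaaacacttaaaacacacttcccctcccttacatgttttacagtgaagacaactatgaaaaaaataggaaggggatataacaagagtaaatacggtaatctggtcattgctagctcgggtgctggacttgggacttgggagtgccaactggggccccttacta
The Nr1i3 window held 1 E-box, which 6.02% of 32851 windows of the same length hold. The second Rxra window held 2 copies of AGGTCA, 1 on each strand. At least 1 copy was found in 14.0% of all windows, and the share with 2 copies was not computed. The first Rxra window, which had a GC content of 81.2%, and the Nr1i2 window, at 44.0%, held none of the 4 motifs. GCGTG was found in 28.2% and CAAAGTCCA in 0.384% of all windows. None of the 4 motifs contains another. A match is a description of the letters and not a binding site.

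Values are given as scaled FPKM, that is, the deposited fragment counts per gene length and library size, divided by a factor for each library that sets the median gene equal between libraries. Control libraries had factors of 0.827 to 0.878, TAA libraries of 1.29 to 1.38 and recovery libraries of 0.893 to 0.907, so the scaling lowered TAA against control values by 0.64 on the log2 scale. Steps between low values put the depth at 27100000 to 40820000 fragments per library, and 344 (Pparg) to 24459 (Rxra) fragments stood behind a receptor's value in a library. Replicates of a group were compared by limma on log2(scaled FPKM + 0.1), and genes with a false discovery rate (FDR, the Benjamini-Hochberg adjusted p over all 14094 genes) under 0.05 are said to have risen or fallen. Those that also changed at least 2-fold were called DEGs. Fold changes are on the log2(scaled FPKM + 0.1) scale, which understates changes of genes near 0.

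Most of these receptors were lower in the TAA than in the control group after scaling. By limma, 3 of the 9 receptors were DEGs with lower levels, namely CAR, PPARα and RXRα, where 8.02% of all tested genes were such DEGs. None was a DEG with a higher level, against 17.0% of all genes. At an unadjusted p under 0.05, 6 were lower and 0 higher by limma, where 4095 and 4360 of the 14094 genes were. By FDR alone, 6 receptors were lower and 0 higher, against 26.3% and 28.2% of all genes. Without scaling (as deposited), 3 were lower by FDR (CAR, PPARα and RXRα) and 2 higher (Ahr and ERα). Of all 14094 genes, 1198 were lower and 8764 higher in that setting. Under quantile normalization 6 were lower and 1, Ahr, was higher, where 3712 and 3313 of all genes were. The median log2 fold change was -0.66 for the receptors and 0.02 for all tested genes. In 6 receptors the 3 TAA mice were all below the 3 control mice, a separation found in 31.0% of all genes.

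**Figure D1:**
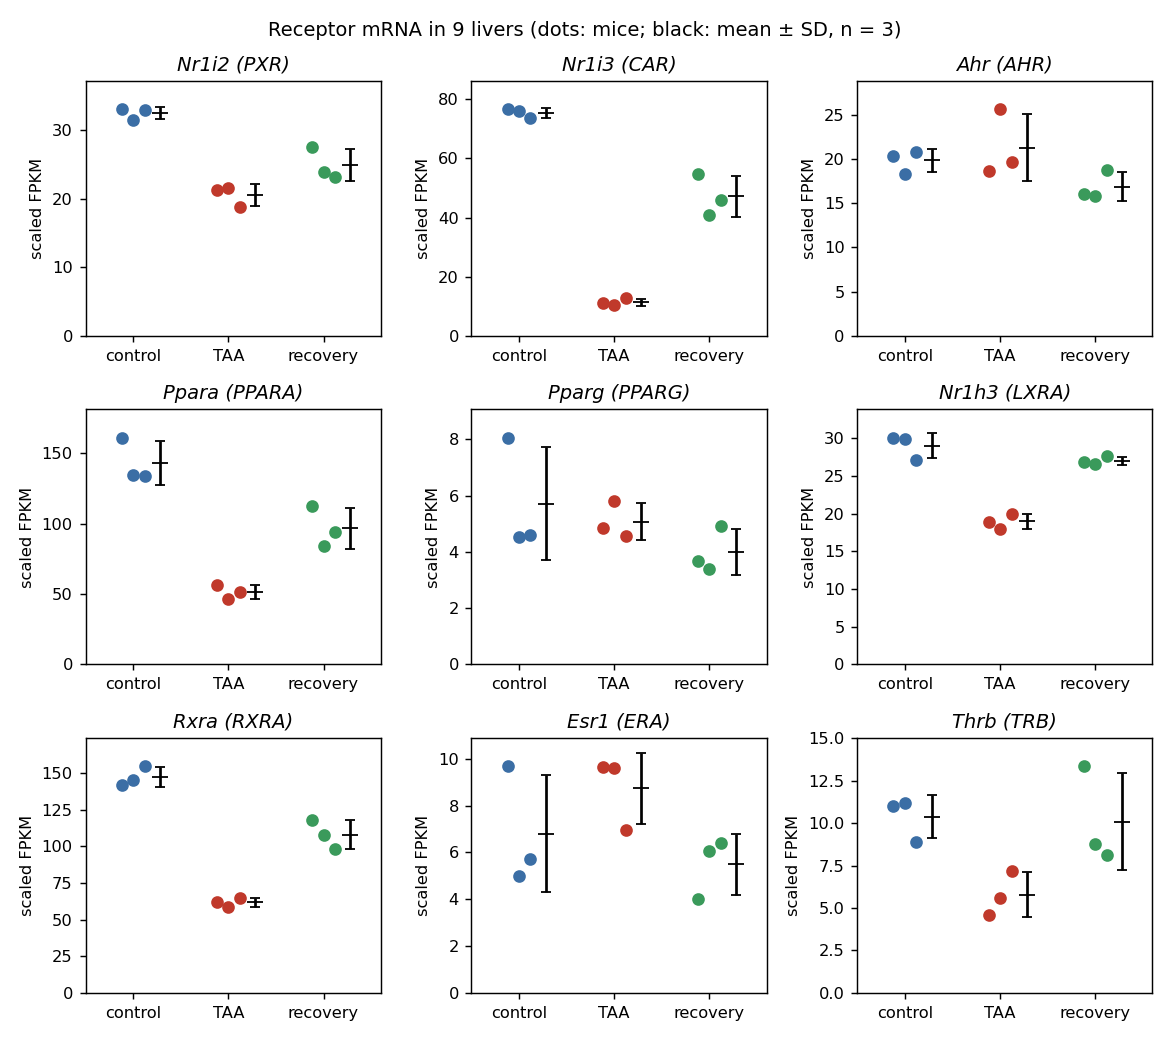
Level of each receptor (vertical axis, scaled FPKM, starting at 0) in each of the 9 mice, with the mean ± SD of 3 mice per group in black. The TAA mice lie below all control mice for Nr1i2, Nr1i3, Ppara, Nr1h3, Rxra and Thrb, and overlap them for Ahr, Pparg and Esr1.

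CAR (Nr1i3, ENSMUSG00000005677, chr1:171213970-171220701, plus strand, GRCm38) had the largest difference of the 9. Its level was 76.5, 76.1 and 73.5 in the 3 control mice, 11.1, 10.4 and 12.8 in the TAA mice, and 54.5, 40.8 and 46.0 in the recovery mice. The groups did not overlap in any pair, with the TAA mice lowest and the recovery mice between them and the control mice. CAR fell 6.58-fold in the TAA group (log2 fold change -2.72, SE 0.10, limma adjusted p = 2.75e-06), which put it in the lowest 0.667% of tested genes by fold change. It rose again in the recovery group by 2.03 on the log2 scale (SE 0.13, limma adjusted p = 2.28e-05), and 25.3% of its log2 difference from the control group was left. The exons of all Nr1i3 transcripts in GENCODE M21 share 74.9% of their bases with Tomm40l, a mitochondrial import gene on the opposite strand, and the library kit did not mark strand, so reads of the pair cannot be separated by strand. Tomm40l was listed at 3.03 ± 0.728 in control, 4.36 ± 0.216 in TAA and 3.55 ± 0.838 in recovery mice (SD, n = 3), and it was higher in the TAA group (log2 fold change 0.54, limma adjusted p = 0.0408).

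PXR (Nr1i2, ENSMUSG00000022809, chr16:38248323-38294824, minus strand) moved less than CAR. The control mice had 33, 31.4 and 32.9, the TAA mice 21.3, 21.6 and 18.7, and the recovery mice 27.5, 23.9 and 23.1. The 3 groups were again separate and in the same order, control over recovery over TAA. PXR fell in the TAA group to 63.4% of the control mean (log2 fold change -0.66, SE 0.09, limma adjusted p = 0.000576), short of 2-fold. Its difference between the recovery and TAA groups, 0.27 on the log2 scale, did not pass (limma adjusted p = 0.0587). Both values depended on the scaling: in the FPKM as deposited the first was -0.02, and PXR was lower in the recovery than in the TAA group (-0.29, limma adjusted p = 0.0287).

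The aryl hydrocarbon receptor (Ahr, ENSMUSG00000019256, chr12:35497974-35535038, minus strand) stood apart from CAR and PXR. Its level was 20.3, 18.3 and 20.8 in the control mice, 18.6, 25.6 and 19.6 in the TAA mice, and 16.1, 15.8 and 18.7 in the recovery mice. The groups overlapped, and TAA replicate 2 held the highest value of all. Between TAA and control mice the log2 fold change was 0.09 (95% interval -0.22 to 0.40, limma adjusted p = 0.600) and -0.32 from the TAA to the recovery group (limma adjusted p = 0.0869). Without TAA replicate 2 the first became -0.05. In the FPKM as deposited, Ahr was higher in the TAA group by 0.72 and lower in the recovery than in the TAA group by 0.88 on the log2 scale, with limma adjusted p values of 0.00212 and 0.000991. Both also passed under quantile normalization, at 0.42 and -0.61. They passed again with scaling factors taken only from genes averaging 10 FPKM or more, at 0.45 and -0.63 (limma adjusted p = 0.0212 and 0.00618).

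Among the lipid receptors, PPARα (Ppara, ENSMUSG00000022383, chr15:85734983-85802819, plus strand) was the most abundant and had the largest fall. The control mice had 161, 135 and 134, the TAA mice 56.3, 46.3 and 51.5, and the recovery mice 112, 83.9 and 93.6. No TAA mouse reached any other mouse, and no recovery mouse reached the control mice. PPARα fell 2.78-fold in the TAA group (log2 fold change -1.48, SE 0.11, limma adjusted p = 4.54e-05) and rose by 0.90 in the recovery group (SE 0.13, limma adjusted p = 0.000794), just under 2-fold. Without recovery replicate 2 that rise was 1.0 and PPARα counted as a DEG. As deposited, the fall was 0.84 and under quantile normalization 0.82, neither of them a DEG, and the rises were 0.34 and 0.36 (limma adjusted p = 0.0408 and 0.0489).

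LXRα (Nr1h3, ENSMUSG00000002108, chr2:91184061-91202834, minus strand) showed the smallest fall that passed the test. Its level was 30.1, 29.9 and 27.1 in the control mice, 18.9, 17.9 and 20.0 in the TAA mice, and 26.8, 26.6 and 27.6 in the recovery mice. The TAA mice were below all others, while the recovery and control mice overlapped. LXRα fell by 0.61 on the log2 scale in the TAA group (SE 0.09, limma adjusted p = 0.000819) and rose by 0.51 in the recovery group (SE 0.08, limma adjusted p = 0.00148). As with PXR, these changes rested on the scaling, and in the FPKM as deposited they were 0.02 and -0.05. Under quantile normalization the rise was 0.23 and did not pass.

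PPARγ (Pparg, ENSMUSG00000000440, chr6:115360894-115490399, plus strand), a fat cell receptor that the liver holds at a low level, had the lowest mean of the 9 in the control group. The control mice had 8.06, 4.51 and 4.59, the TAA mice 4.84, 5.81 and 4.58, and the recovery mice 3.69, 3.39 and 4.92. Control replicate 1 was far above the other mice, which overlapped between groups. Between TAA and control mice the log2 fold change was -0.12 (95% interval -0.66 to 0.41, limma adjusted p = 0.678), 0.15 without control replicate 1 and 0.50 in the FPKM as deposited. From the TAA to the recovery group it was -0.35 (limma adjusted p = 0.120) and did not pass, but did at -0.50 without recovery replicate 3 and at -0.90 in the FPKM as deposited (limma adjusted p = 0.00216). Control replicate 1 also had the highest summed level of 6 adipocyte markers, 14.9 against 2.06 to 5.61 in the other 8 mice, of which Cfd made up 8.41, while Adipoq was at 0.0699 and Lep was listed at 0 in all libraries. The part of fat tissue in this value was not tested.

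RXRα (Rxra, ENSMUSG00000015846, chr2:27676440-27762957, plus strand), the common partner, had the highest mean of the 9 in all 3 groups. Its level was 141, 145 and 154 in the control mice, 62.2, 58.4 and 64.8 in the TAA mice, and 118, 108 and 98.2 in the recovery mice. All 3 groups were separate, with the recovery mice between the others. RXRα fell 2.38-fold in the TAA group (log2 fold change -1.25, SE 0.08, limma adjusted p = 2.61e-05) and rose by 0.80 in the recovery group (SE 0.10, limma adjusted p = 0.000367). The log2 fold change in the TAA group was -0.61 as deposited and -0.57 under quantile normalization. With factors from genes averaging 10 FPKM or more it was -0.89. RXRα was a DEG in none of these settings. The difference between the recovery and TAA groups did not pass as deposited (0.24, limma adjusted p = 0.0603) or under quantile normalization, also at 0.24. It passed with the factors from genes averaging 10 FPKM or more (0.49, limma adjusted p = 0.00325).

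The hormone receptors differed from each other. TRβ (Thrb, ENSMUSG00000021779, chr14:17643353-18038090, plus strand) was at 11.0, 11.2 and 8.91 in the control mice, 4.58, 5.61 and 7.18 in the TAA mice, and 13.4, 8.77 and 8.11 in the recovery mice. The TAA mice were below all others, and the recovery mice spread over the control range and beyond it. TRβ fell by 0.85 on the log2 scale in the TAA group (SE 0.18, limma adjusted p = 0.00500) and rose by 0.78 in the recovery group (SE 0.22, limma adjusted p = 0.0213), and the second call was lost without recovery replicate 1, TAA replicate 1 or TAA replicate 2 (0.56, 0.62 and 0.77). In the FPKM as deposited neither passed, at -0.22 and 0.22.

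ERα (Esr1, ENSMUSG00000019768, chr10:4611593-5005614, plus strand) was at 9.68, 5.0 and 5.73 in the control mice, 9.65, 9.59 and 6.98 in the TAA mice, and 4.0, 6.07 and 6.40 in the recovery mice. Control replicate 1 was as high as the highest TAA mice, and the TAA mice were above all recovery mice. Its log2 fold change between TAA and control mice, 0.40, did not pass (95% interval -0.19 to 0.99, limma adjusted p = 0.215), but did at 0.68 without control replicate 1. From the TAA to the recovery group ERα fell by 0.67 (SE 0.21, limma adjusted p = 0.0269), a call lost without TAA replicate 1, TAA replicate 2 or recovery replicate 1 (-0.60, -0.60 and -0.47). In the FPKM as deposited ERα was a DEG in both comparisons, higher in the TAA group by 1.03 and lower in the recovery group by 1.23 on the log2 scale. With factors from genes averaging 10 FPKM or more both passed, at 0.76 and -0.98 (limma adjusted p = 0.0265 and 0.00486). Under quantile normalization only the second passed (-0.76, limma adjusted p = 0.0223). The second was lost with no filter and in 1 fit on all 9 libraries (limma adjusted p = 0.0548 and 0.0556).

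Between the TAA and recovery groups, 1 receptor was a DEG with a higher level (CAR), where 7.12% of all genes were, and 0 were DEGs with a lower level, where 14.3% were. At an unadjusted p under 0.05, 6 receptors were higher and 2 lower by limma, where 3872 and 4125 of the 14094 genes were. By FDR alone 5 receptors were higher (24.5% of all genes) and 1, ERα, was lower (26.0%). As deposited, 2 were higher (CAR and PPARα) and 4 lower (PXR, Ahr, PPARγ and ERα), where 1141 and 8333 of the 14094 genes were. Under quantile normalization 3 were higher and 2 lower, where 3344 and 3204 of all genes were. The median log2 fold change was 0.51 for the receptors and -0.01 for all genes. The recovery mice were all above the TAA mice in 6 receptors (29.4% of all genes) and all below them in 1 (31.0%). Since both comparisons use the same TAA mice, a fall in the first and a rise in the second are not independent.

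Between the recovery and control groups CAR differed by FDR and the other receptors did not. Against the control group, 0 of 9 receptors were DEGs in the recovery group by limma, where 0.993% of all genes were. At an unadjusted p under 0.05, 5 were lower and 0 higher by limma, where 1647 and 1595 of the 14094 genes were. By FDR alone 1 receptor was lower, CAR (log2 fold change -0.69, SE 0.11, limma adjusted p = 0.0349), where 1.38% of all genes were lower. That call was lost when any mouse other than recovery replicate 1 was left out, with log2 fold changes of -0.80 to -0.59 and limma adjusted p values of 0.0302 to 0.120. RXRα (-0.45, 95% interval -0.66 to -0.24, limma adjusted p = 0.0515), PXR (-0.39, limma adjusted p = 0.0646) and PPARα (-0.57, limma adjusted p = 0.0711) did not pass, but all 3 did in 1 fit on all 9 libraries (limma adjusted p = 0.0218, 0.0399 and 0.0330), and RXRα did with the filter at 1 FPKM (0.0419). The 3 recovery mice lay below the 3 control mice in CAR, PXR, PPARα and RXRα, a separation found in 15.6% of all genes. LXRα (-0.10, 95% interval -0.27 to 0.06) and TRβ (-0.07, 95% interval -0.56 to 0.42) were closest to the control level. Ahr (-0.23, limma adjusted p = 0.208), PPARγ (-0.47, limma adjusted p = 0.33) and ERα (-0.27, limma adjusted p = 0.613) did not pass either. The differences between these 2 groups cannot be told apart from that of age.

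**Figure D2:**
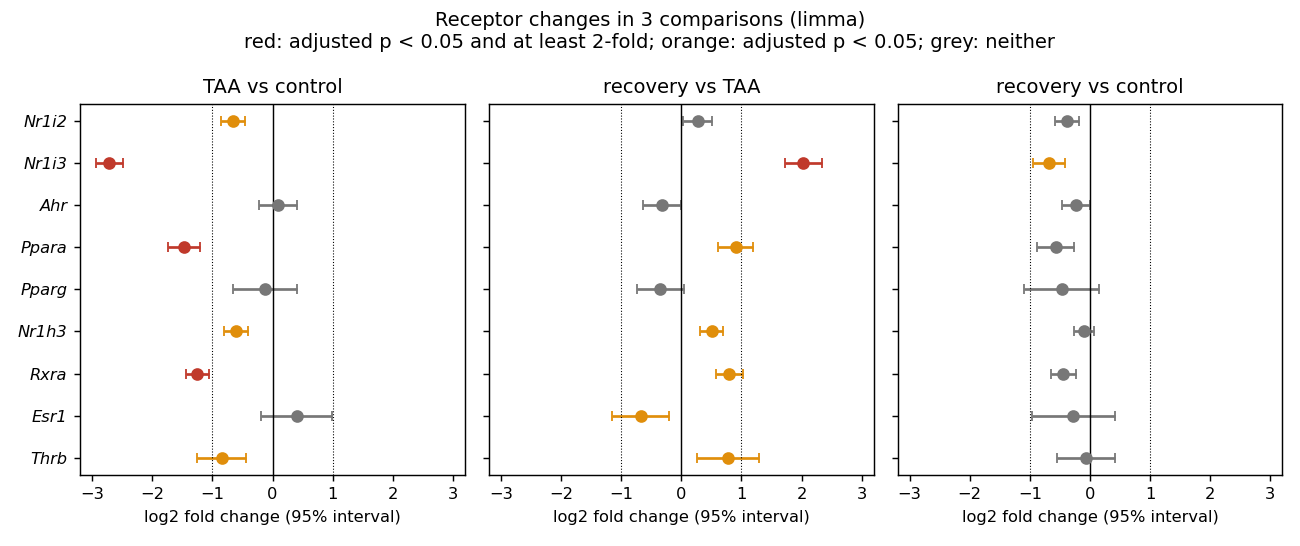
Log2 fold change (horizontal axis) of each receptor in the 3 comparisons with its 95% interval from limma, red for DEGs, orange for FDR under 0.05 alone and grey for neither. Nr1i3 lies farthest from 0 both for TAA against control (-2.72) and for recovery against TAA (2.03).

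The direction of several receptors followed the scaling, because the median gene was 0.63 higher on the log2 scale in the TAA group in the FPKM as deposited. Without scaling, 4382 of all genes were DEGs with a higher and 421 with a lower level in the TAA group, against 2389 and 1131 with it. Between the TAA and recovery groups these numbers were 409 and 3728, against 1003 and 2014. CAR, PPARα, RXRα and TRβ were lower in the TAA group under all 4 scalings tried, and the log2 fold changes of Ahr and ERα were above 0 under all 4. CAR alone was a DEG under all 4, at -2.08 (as deposited), -2.36 (factors from genes averaging 10 FPKM or more), -2.38 (quantile normalization) and -2.72. PXR was lower under all 4 but by only 0.02 as deposited, LXRα changed sign as deposited, and PPARγ changed sign as deposited and with the factors from genes of at least 10 FPKM.

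**Figure D3:**
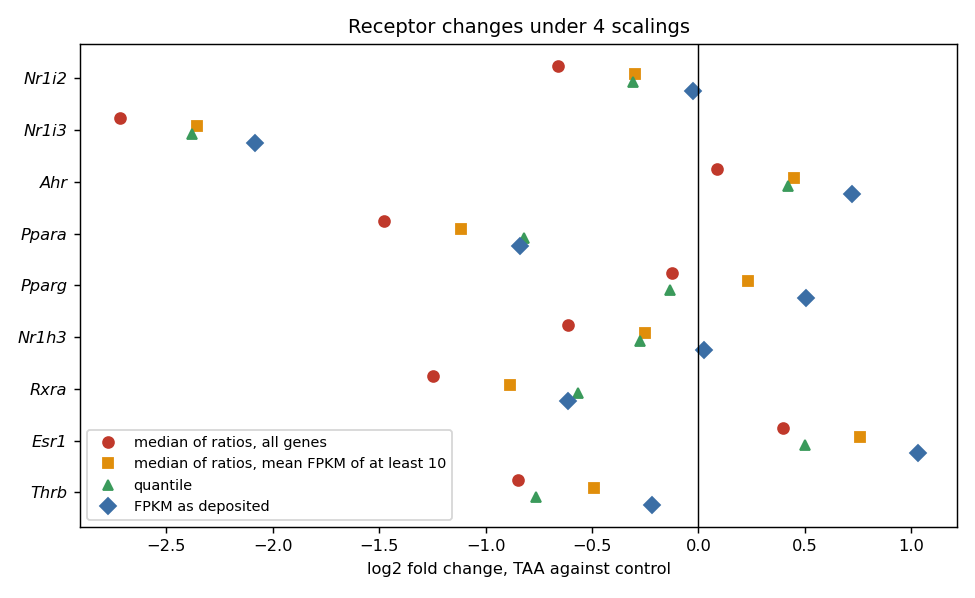
Log2 fold change of each receptor for TAA against control (horizontal axis) under 4 scalings of the same FPKM. Nr1i3 stays below -2 under each, while Pparg and Nr1h3 have points on both sides of 0.

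A ratio of each receptor to RXRα within a library does not depend on the scaling. For Ahr and ERα, which are not among the receptors named above as pairing with RXRα, it serves only as a common divisor. The ratio of CAR was below that of all control mice in each TAA mouse, going from 0.541, 0.525 and 0.476 FPKM per FPKM of Rxra in the control mice to 0.178, 0.178 and 0.197 in the TAA mice, and it stood at 0.464, 0.379 and 0.469 in the recovery mice. The 3 groups did not overlap, and in 5.61% of all genes the ratio was higher in all recovery than in all TAA mice and in 1.32% lower than in all control mice. The mean ratio was 2.79-fold lower in the TAA than in the control group. Of the 8 ratios, 1 was lower in all TAA mice (3.17% of all genes against Rxra) and 5 were higher (85.4%), those of PXR, Ahr, PPARγ, LXRα and ERα. PPARα kept overlapping ratios in the 3 groups, at 0.977 ± 0.142 in the control, 0.830 ± 0.0642 in the TAA and 0.895 ± 0.101 in the recovery group (SD, n = 3), as did TRβ between the control and TAA groups. The ratio of Ahr to RXRα was 2.57-fold, and that of ERα 3.05-fold, higher in the TAA than in the control group.

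Level per gene length put the receptors in the order RXRα, PPARα, CAR, PXR, LXRα, Ahr, TRβ, ERα and PPARγ in the control group, with means of 147, 143, 75.4, 32.4, 29.0, 19.8, 10.4, 6.81 and 5.72 scaled FPKM. RXRα and PPARα overlapped between mice, as did TRβ with ERα and ERα with PPARγ. In the TAA group CAR dropped from the third to the sixth place, at 11.4 ± 1.21 (SD, n = 3), below Ahr at 21.3 ± 3.77, PXR at 20.5 ± 1.56 and LXRα at 19.0 ± 1.02. CAR was back in the third place in recovery mice, at 47.1 ± 6.93.

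Other nuclear receptors give the surroundings of the 9. Of 41 other family members, 33 passed the filter. In the TAA group 6 of these were DEGs with a lower and 2 with a higher level, where 8.02% and 17.0% of all genes were. The median log2 fold change of the 33 was -0.51, against 0.02 for all genes. Among the falls were those of Esrrg (-4.04, limma adjusted p = 7.40e-06), an orphan receptor of energy metabolism, and of Nr0b2 (-1.56, limma adjusted p = 4.78e-05), which encodes the repressor SHP. Esrrg was at 1.60, 1.93 and 2.09 in the control mice, 0.0233, 0.0218 and 0.0141 in the TAA mice and 0.211, 0.240 and 0.264 in the recovery mice, so its groups were wide apart. The DEGs with a higher level, Hnf4g (1.37, limma adjusted p = 0.0033) and Nr4a3 (1.06, limma adjusted p = 0.0235), had means of at most 0.290 scaled FPKM in each group, and Nr4a3 lost its call without control replicate 2, TAA replicate 1 or TAA replicate 3 (adjusted p up to 0.0752). In the FPKM as deposited 2 of the other family members were DEGs with a lower and 5 with a higher level, where 421 and 4382 of the 14094 genes were. Against the TAA group, 7 were DEGs with a higher and 1 with a lower level in the recovery group (median log2 fold change 0.29). Of all genes, 7.12% and 14.3% were. In the FPKM as deposited 4 were higher and 3 lower, where 409 and 3728 of the 14094 genes were. Esrrg was still lower than in the control group (-2.54, limma adjusted p = 0.00661), as was the clock repressor Nr1d2 (-1.09, limma adjusted p = 0.0105), whose call was lost without recovery replicate 2 (limma adjusted p = 0.0568).

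**Figure D4:**
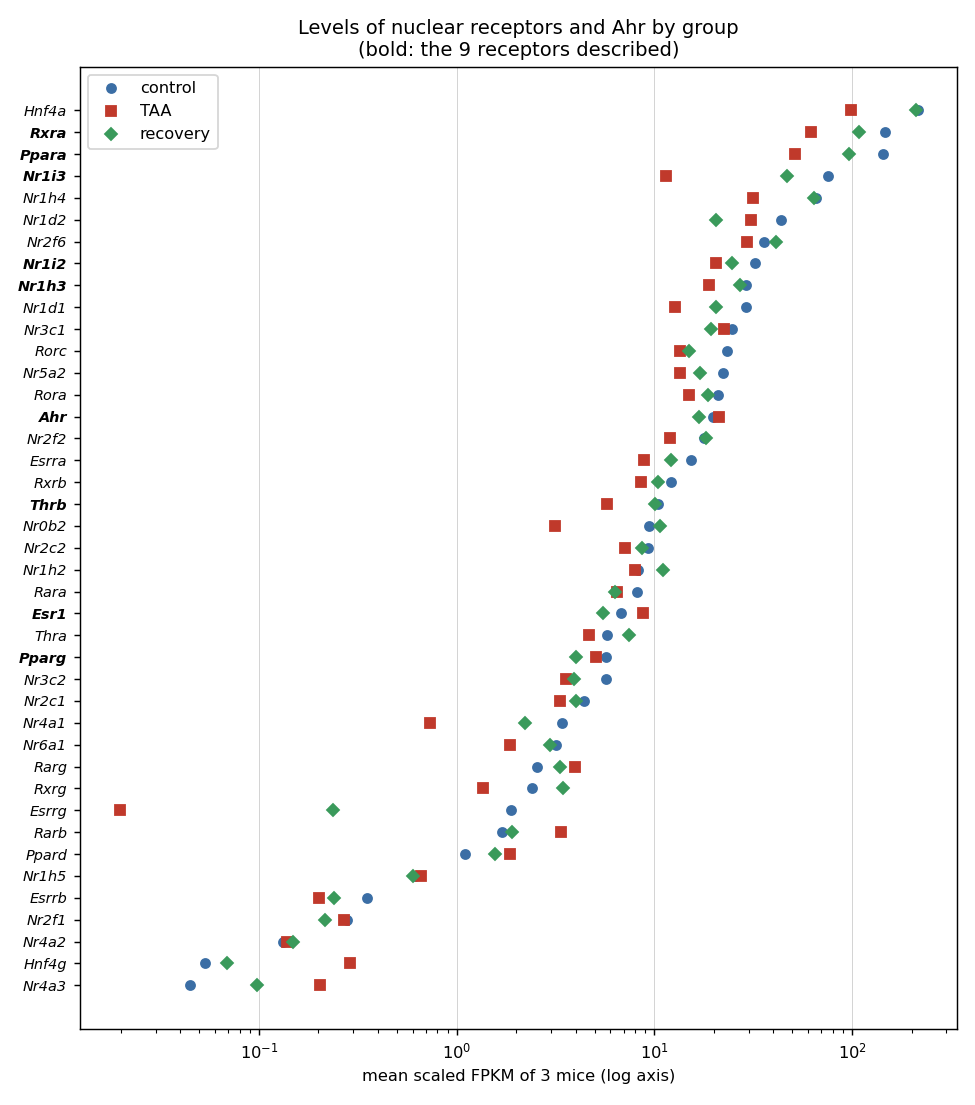
Mean scaled FPKM of 3 mice (horizontal log axis) of other nuclear receptors that passed the filter and of the 9 receptors in bold, ordered by the control group. Among the 5 most abundant genes of the control group, Nr1i3 has the widest gap between the control and TAA groups.

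Of 17 partners and coregulators of the receptors that passed the filter, 1 was a DEG with a higher level in the TAA group, where 17.0% of all genes were, and 2 were DEGs with a lower level, where 8.02% were. The latter were the coactivator of mitochondrial and fatty acid genes Ppargc1a (log2 fold change -1.22, limma adjusted p = 0.00905) and its relative Ppargc1b (-1.34, limma adjusted p = 0.0014). Neither was a DEG in the FPKM as deposited, and Ppargc1a lost its call without control replicate 3 (-0.96). Arnt2 was the DEG with a higher level (3.41, limma adjusted p = 2.78e-05), at 0, 0 and 0.0168 scaled FPKM in the control mice and 0.797, 1.10 and 1.21 in the TAA mice. Arnt, the usual partner of the aryl hydrocarbon receptor, was at 10.3 ± 0.254 and 10.1 ± 0.481 in the same groups (SD, n = 3) and did not pass (limma adjusted p = 0.813). The median of the list was -0.07. After recovery 0 partners were DEGs against the control group by limma. At an unadjusted p under 0.05, 1 was higher and 3 were lower by limma, where 1595 and 1647 of the 14094 genes were.

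Target genes of each receptor were taken from textbook lists. For comparison with these and all later lists, 8.02% of all genes were DEGs with a lower and 17.0% with a higher level in the TAA group. As deposited these were 421 and 4382 of the 14094 genes, and 1375 and 1544 under quantile normalization. Against the TAA group, 7.12% of all genes were DEGs with a higher and 14.3% with a lower level in the recovery group. Of 16 PPARα targets, 15 were DEGs with a lower level in the TAA group and 1 with a higher level, and the median log2 fold change was -1.99. The fatty acid hydroxylases Cyp4a14 and Cyp4a10 led the falls. Cyp4a14 was at 1991, 2880 and 2232 scaled FPKM in the control mice, 45.2, 104 and 49.9 in the TAA mice and 1731, 2081 and 2163 in the recovery mice, which put every TAA mouse far under all others (log2 fold change -5.24, limma adjusted p = 1.63e-05). Cyp4a10 fell by 4.71 (limma adjusted p = 3.62e-06). From TAA to recovery, 15 of the 16 were DEGs with a higher level in the latter, with a median for the list of 2.03. Against the control group 0 were DEGs with a lower level in the recovery group by limma, and 1, Pdk4, with a higher level. At an unadjusted p under 0.05, 5 were lower and 2 higher by limma, where 1647 and 1595 of the 14094 genes were. In the FPKM as deposited, 12 of the 16 were DEGs with a lower level in the TAA group, and 9 were under quantile normalization.

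Pdk4, a kinase that turns off pyruvate oxidation and is counted among the PPARα targets, moved against the rest of the list. It was at 3.85, 5.42 and 2.68 scaled FPKM in the control mice, 19.8, 25.0 and 15.5 in the TAA mice and 16.6, 23.0 and 24 in the recovery mice. The TAA and recovery mice overlapped and both were above all control mice. Pdk4 rose by 2.33 on the log2 scale in the TAA group (limma adjusted p = 0.000289) and was still 2.42 higher in recovery than in control mice (limma adjusted p = 0.0161), a call lost without recovery replicate 2 or 3 (limma adjusted p up to 0.0769).

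The targets shared by PXR and CAR split. Of 11, 5 were DEGs with a lower and 2 with a higher level in the TAA group, with a median of -0.99, and in the FPKM as deposited 3 were lower and 2 higher. The bile acid and drug importer Slco1a4 (-2.70, limma adjusted p = 1.17e-05), the bilirubin-conjugating enzyme Ugt1a1 (-2.46, limma adjusted p = 9.95e-05) and the carboxylesterase Ces2a (-2.37, limma adjusted p = 3.46e-05) had the largest falls. The cytochrome P450 genes Cyp2b10 and Cyp2c55 rose, by 3.94 (limma adjusted p = 0.000402) and 4.25 (limma adjusted p = 5.69e-05). Cyp2b10, the marker gene of CAR activity, was at 0.233, 0.136 and 0.215 scaled FPKM in the control mice, 3.05, 10.3 and 2.61 in the TAA mice and 0.914, 3.08 and 1.21 in the recovery mice, so that it was highest in the group with the least CAR mRNA. Cyp3a11, the marker gene of PXR activity, was at 2289 ± 576 in the control, 1734 ± 457 in the TAA and 2941 ± 327 in the recovery group (SD, n = 3), and did not pass between the first pair (limma adjusted p = 0.205). Against the TAA group, 5 targets were DEGs with a higher and 1 with a lower level in the recovery group (median 0.79). Against the control group Cyp2b10 was higher in the recovery group (2.47, limma adjusted p = 0.0439) and Alas1, the first enzyme of heme synthesis, was lower (-1.02, limma adjusted p = 0.0194). The Cyp2b10 call was lost when any 1 of the 6 mice was left out (limma adjusted p from 0.0510 to 0.118), and that of Alas1 when any but control replicate 1 was (up to 0.0823).

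Targets of the aryl hydrocarbon receptor included the largest rise of the target lists. Its own mRNA did not pass the test after the scaling used here, but it did under the other scalings tried. Cyp1a1, its classic target, was at 0.292, 0.433 and 0.304 scaled FPKM in the control mice, 15.7, 41.7 and 26.5 in the TAA mice and 0.426, 0.311 and 0.367 in the recovery mice. The TAA mice were far above all others, and Cyp1a1 rose by 5.89 on the log2 scale (limma adjusted p = 1.33e-05) and fell by 5.80 in the recovery group (limma adjusted p = 1.26e-05). Of the 6 targets tested, 2 were DEGs with a higher level in the TAA group, Cyp1a1 and the quinone reductase Nqo1 (1.48, limma adjusted p = 0.00035), and 0 with a lower level. At an unadjusted p under 0.05, 3 were higher and 2 lower by limma, where 4360 and 4095 of the 14094 genes were. The list's median was 0.64. Cyp1a2, the abundant hepatic member, fell by 0.37 (limma adjusted p = 0.0285), with 204 ± 22.6 in the control and 157 ± 13.8 in the TAA group (SD, n = 3), but its sign depended on the scaling, with 0.26 in the FPKM as deposited and 0.52 (limma adjusted p = 0.0296) under quantile normalization, and without 1 mouse the adjusted p was up to 0.0884.

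Targets of LXRα moved in both directions. Of 11, 2 were DEGs with a higher level in the TAA group, the lipogenic genes Fasn (1.76, limma adjusted p = 0.000364) and Srebf1 (1.17, limma adjusted p = 0.000382), and 1 with a lower level, the sterol exporter Abcg8 (-1.46, limma adjusted p = 8.60e-05), which was -0.83 and no DEG in the FPKM as deposited. The median was -0.35, and 0.28 in the FPKM as deposited. Fasn was at 20.4, 17.5 and 14.3 in the control mice, 79.9, 52.0 and 47.7 in the TAA mice and 22.5, 20.0 and 16 in the recovery mice. The TAA mice were above all others, and the control and recovery mice overlapped. Of 6 PPARγ targets, 3 were DEGs with a lower level (Plin4, Mogat1 and Cidec, with -2.43, -2.12 and -1.17) and 1 with a higher level, Fabp4 (1.12), which lost its call without control replicate 1 (0.86). The Cidec call was lost without TAA replicate 1 (-0.97).

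Thyroid hormone targets split evenly. Of 6, 2 were DEGs with a higher level in the TAA group, Hr (3.18, limma adjusted p = 1.95e-05) and the lipogenic gene Thrsp (2.62, limma adjusted p = 3.30e-05), and 2 with a lower level, Dio1 (-3.61, limma adjusted p = 0.000134) and Klf9 (-1.14, limma adjusted p = 0.00018). Dio1, the deiodinase that makes and clears active thyroid hormone, was at 34.0, 36.8 and 38.4 in the control mice, 5.11, 1.60 and 2.90 in the TAA mice and 30.5, 20.3 and 29.3 in the recovery mice. It was lowest in every TAA mouse and rose by 3.14 in the recovery group (limma adjusted p = 0.000326). Klf9 was no DEG in the FPKM as deposited (-0.50). Reads of the Cyp2b, Cyp2c, Cyp3a, Cyp4a and Ugt1a genes, which have near-identical copies or shared exons, could have been divided between copies in the authors' counting, and their values are less certain.

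**Figure D5:**
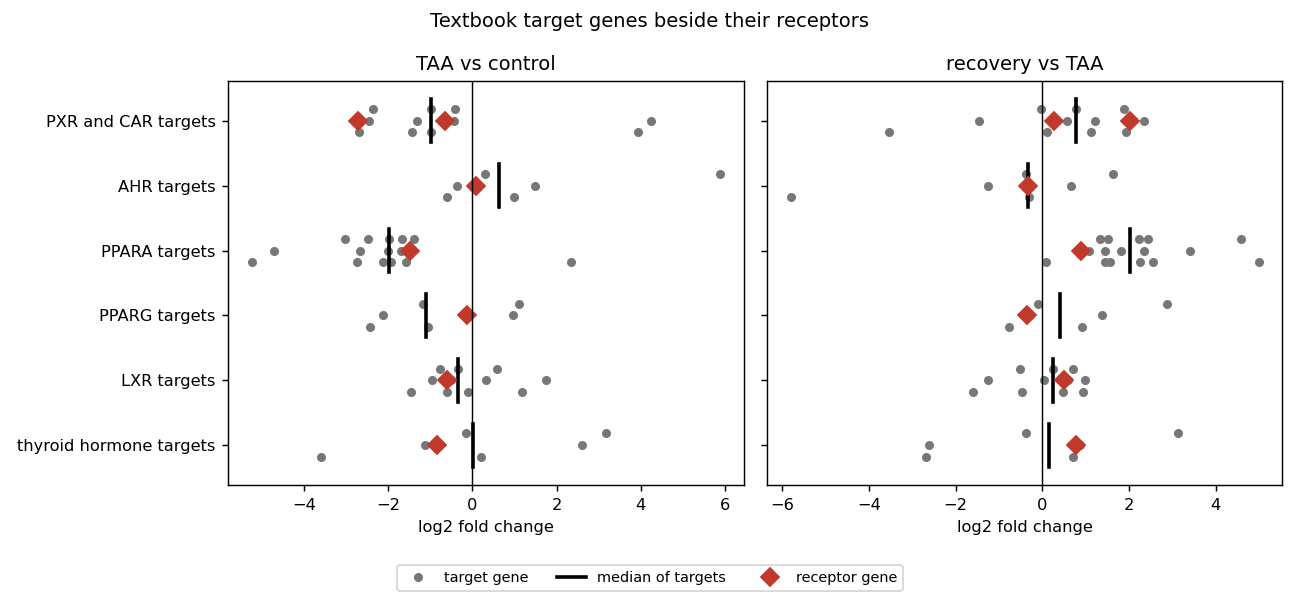
Log2 fold change (horizontal axis) of each textbook target gene (grey), the median of its list (black line) and the receptor genes themselves (red), for TAA against control and for recovery against TAA. The PPARA targets other than Pdk4 lie together below 0 on the left and above 0 on the right, and the other lists spread over both sides of 0.

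Genes that make or remove receptor ligands were changed in both directions as well. Of 13 that passed the filter, 4 were DEGs with a lower and 4 with a higher level in the TAA group, with a median of -0.51. Cyp8b1, the sterol 12-hydroxylase of bile acid synthesis, fell by 5.23 (limma adjusted p = 0.000305), from 427 ± 63.9 to 14.9 ± 12.3 scaled FPKM (SD, n = 3), and the cholesterol 24-hydroxylase Cyp46a1, which makes an oxysterol, fell by 2.25 (limma adjusted p = 0.001). The estrogen sulfotransferase Sult1e1 rose by 3.52 (limma adjusted p = 0.00101), at 0, 0.237 and 0 in the control mice and 0.993, 2.28 and 1.85 in the TAA mice. Cyp26a1, which breaks down retinoic acid, rose by 1.65 (limma adjusted p = 0.00498), and Hsd17b6, a steroid and retinol oxidoreductase, by 1.10 (limma adjusted p = 0.0365), a call that was kept without control replicate 1 and lost without any other mouse (limma adjusted p up to 0.108). After recovery 4 were DEGs with a higher and 1 with a lower level against the TAA group.

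The genes most like each receptor over the 9 libraries were found by Pearson's r of log2(scaled FPKM + 0.1) among 10689 named genes with a mean of at least 1. The libraries share their groups and their scaling, so r describes the 3-group pattern together with the spread between mice. CAR was closest to the glucagon receptor gene Gcgr (r = 0.998), to Hsd3b5 and to Tbc1d20, and Gcgr had means of 76.0, 22.6 and 57.3 scaled FPKM in the control, TAA and recovery groups. RXRα was closest to Fam169b (0.995) and Klf15 (0.994), PPARα to Dhrs1 (0.994), LXRα to Naprt (0.992), PXR to Mthfs (0.991) and TRβ to Actr1b (0.979). Among the receptors, CAR, PPARα, LXRα and RXRα had r of 0.94 to 0.99 with each other over the 9 libraries, and Ahr, PPARγ and ERα had r of 0.63 to 0.72. PPARγ and ERα both had their highest value in control replicate 1, at 8.06 and 9.68 scaled FPKM.

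Markers of cell types moved with the groups. The summed scaled FPKM of 5 hepatocyte markers was 37166 to 41152 in the control mice, 21665 to 28656 in the TAA mice and 46231 to 48643 in the recovery mice, and 3 of the 5 were DEGs with a lower level in the TAA group. Their median log2 fold change was -1.26, and -0.62 in the FPKM as deposited. Alb, with means of 28326 in the control and 20463 in the TAA group, made up most of these sums and did not pass (limma adjusted p = 0.188). The sums are given after scaling only. With other settings of scaling, filter and fit, 0 to 3 hepatocyte markers were DEGs with a lower level and 0 to 1 with a higher level. The sum of 6 cholangiocyte markers was 15.7 to 21.0, 295 to 443 and 27.9 to 38.4 in the same order, with all 6 DEGs, and that of 6 stellate cell and myofibroblast markers 29.6 to 38.7, 121 to 157 and 28.9 to 37.5, with 5 DEGs. Sums of the macrophage markers (49.3 to 118, 99.2 to 108 and 130 to 167), endothelial markers (49.2 to 92.0, 55.0 to 73.9 and 84.8 to 96.9) and lymphocyte markers (5.26 to 7.23, 9.35 to 12.2 and 4.03 to 8.85) complete the set. The macrophage and endothelial sums overlapped between the control and TAA groups only through control replicate 1, at 49.3 and 49.2. The other control mice, with macrophage sums of 113 and 118 and endothelial sums of 92.0 and 88.9, were above all TAA mice. Single macrophage markers went the other way. By FDR, Cd68 (1.21, limma adjusted p = 0.00285) and Adgre1 (0.52, limma adjusted p = 0.00753) rose in the TAA group and 0 fell. Of all genes, 28.2% rose and 26.3% fell. The median of the macrophage list was 0.41. Of the endothelial markers 0 rose and 0 fell by FDR. Beside these, CAR was 15.1%, PPARα 35.9% and RXRα 42.1% of the control mean in the TAA group. The part of cell composition in the receptor levels was not tested.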

How the data were processed

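The authors made paired-end liver mRNA libraries of 9 mice with a kit that does not mark strand. Reads were mapped to the mouse genome (mm10, GRCm38) with HISAT2 2.2.1 and counted on genes with featureCounts 1.5.0-p3, and the authors deposited the result as FPKM per gene and mouse, with no scaling between libraries. The authors tested read counts with DESeq2, and those counts were not used here. Samples were grouped by the treatment on their labels, and all 9 columns were mapped to a mouse. The labels do not say whether mice shared cages or days. The p values set group differences against the spread between these mice and do not allow for such sharing.

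Median-of-ratios factors, by which FPKM were divided, came from the 14005 genes above 0 in all libraries. Genes with a mean FPKM under 0.1 were dropped, and log2(scaled FPKM + 0.1) was fitted in limma 3.58.1 (R 4.3.3, lmFit and eBayes with trend) on the 6 libraries of each of 3 comparisons, with Benjamini-Hochberg adjustment over all tested genes. DEGs passed an FDR of 0.05 and changed 2-fold or more. The steps were tested on simulated data. Depth was estimated from low FPKM times transcript length, where 58.4% to 67.0% of low values per library came out whole within 0.08 of a fragment and 16% would by chance, so no count test was run. Tables were prepared with Python 3.11.15 and pandas 2.3.3. Promoter windows came from RefSeq (GRCm38.p6) and gene models from GENCODE M21, which held 99.5% of the identifiers.

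The receptors, gene lists and tests were chosen with earlier results of these data known. All 9 receptors are named in each comparison. From every list up to 3 rising and 3 falling DEGs of the TAA group, ranked by fold change, are named, plus DEGs between the recovery and control groups, and any target gene. Some genes that met this rule are not reported here. For likeness, the 3 genes with the highest r qualified. The pseudocount, filter, scaling, fit, moderation, replicate block, test and set of mice were varied.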

Additional observations from a re-analysis of the deposited data

How the results depend on the processing

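Of 432 recomputed log2 fold changes of single receptors, 378 kept their direction and their side of the FDR threshold, 25 kept the direction but no longer passed, 17 kept it and passed in addition, and 12 changed sign. The cause was not tested for any of them. Between TAA and control mice the changed signs were those of Ahr without TAA replicate 2 (-0.051, with 0.18 as the highest value without 1 mouse), Pparg in the FPKM as deposited (0.50), with factors from genes of at least 10 FPKM (0.23) and without control replicate 1 (0.15, with -0.26 as the lowest value without 1 mouse), and Nr1h3 in the FPKM as deposited (0.025). Between recovery and TAA mice they were those of Nr1h3 (-0.050) and Nr1i2 (-0.29) in the FPKM as deposited and of Nr1i2 with the factors from genes of at least 10 FPKM (-0.040), which were chosen after seeing the data. Between recovery and control mice they were those of Esr1 without control replicate 1 (0.0061, with -0.46 as the lowest without 1 mouse) and of Thrb in the FPKM as deposited (0.0053) and without recovery replicate 2 (0.011) or 3 (0.067, with -0.29 as the lowest without 1 mouse).

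Between TAA and control mice, 2389 higher genes became 890 with a pseudocount of 1, 1176 with the filter set at 1 FPKM, 4382 in the FPKM as deposited, 1544 under quantile normalization and 941 with limma's treat, which tests for a change beyond 2-fold. The 1131 lower genes became 421 in the FPKM as deposited, 500 with treat and 659 with the factors from genes of at least 10 FPKM. Receptors called higher went from 0 to 1 and lower from 3 to 1 in the FPKM as deposited, and lower to 1 under quantile normalization. Rxra also lost its call with treat (adjusted p = 0.0837 in limma's treat) and with the factors from genes of at least 10 FPKM (-0.89). Between recovery and TAA mice, 1003 higher genes became 409 in the FPKM as deposited, 401 with treat and 594 with the factors from genes of at least 10 FPKM, and 2014 lower genes became 711 with a pseudocount of 1, 975 with the filter at 1 FPKM, 3728 in the FPKM as deposited and 683 with treat. Receptors called higher ranged from 1 to 2 when 1 mouse was left out, and 1 was called lower in the FPKM as deposited.

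Between recovery and control mice, 82 higher genes became 40 with a pseudocount of 1, 27 with no filter, 151 with 1 fit on all 9 libraries, 49 without trend and 0 with treat (47 at an unadjusted p under 0.05 in limma's treat), and 58 lower genes became 21 with no filter, 36 without trend and 0 with treat (41 unadjusted). Without 1 mouse they ranged from 15 to 69 higher and 16 to 41 lower genes. The replicate block, with the replicate number as a term, gave 9 higher and 8 lower genes there and lost the call of Nr1i3 (limma adjusted p = 0.074), and it changed no other call of a receptor. Deviations of same-numbered mice correlated at r of -0.07 to 0.12 across genes and those of other pairs at -0.11 to 0.13. These ranges overlapped, but such correlations cannot tell whether any mice shared a cage or a day. Depth of 27100000 to 40820000 fragments leaves genes with an FPKM near 0.1 imprecise, and 3 mice per group limit the rest.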
